A study of Homo sapiens with 6 samples.

Results

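Interferon-stimulated effector genes encode the proteins that a cell makes in answer to interferon, and 50 of them were followed here in HN5, an established line of human squamous carcinoma cells from the head and neck, and in an erlotinib-resistant line derived from it. The 50 genes were fixed by name. Each was represented by 1 array probe, the one with the highest mean over the 6 arrays among the probes annotated to that gene. All 50 had a probe, out of 20046 genes named on the array, and all 50 were bright enough to be tested among 11421 genes. The parental group held 3 arrays of cells labelled erlotinib sensitive. The resistant group held 3 arrays of 1 line, grown in rising erlotinib, an inhibitor of the epidermal growth factor receptor kinase, over 3 months to 12.5 µM and then kept at that dose for 6 months. The labels do not say whether the drug was still present when RNA was taken, so resistance, drug exposure and time in culture cannot be told apart. The samples of a group are called biological replicates with no word on separate cultures. A p-value here therefore reflects only how far these arrays vary, which may be technical.

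Type I and type III interferons bind their receptors on the cell surface, where the kinases JAK1 and TYK2 pass the signal to STAT proteins. These join IRF9 and bind a short DNA element, the interferon-stimulated response element, in front of the effector genes. The effector proteins block viruses at different steps: some bind foreign RNA, some sit in membranes and stop entry or release, some attach the ubiquitin-like protein ISG15 to other proteins. Epithelial tumour cells can carry raised levels of these genes without any infection.

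The response element was looked for in the RefSeq promoter windows (GRCh38.p14, 250 bases before to 50 after each annotated start), available for 41 members with 59 starts. No promoter sequence was used for IFIT2, OAS2, OASL, IFITM2, MX2, USP18, TRIM22, APOL6 and LAMP3. The letters searched were GAAANNGAAA, on both strands, so that a match on the other strand reads TTTC, any 2 bases, TTTC. They were found in 33 of the 59 windows (55.9%), against 1255 of 35116 windows of all genes (3.57%); counted by gene this was 28 of 41 members (68.3%) and 4.38% of all genes. The letters TTCNNNGAA, the core of the gamma-activated site bound by STAT dimers, were in 13 of the 59 windows (22.0%) and in 7.66% of all windows. In 6 member windows the matches of the 2 motifs overlapped, in 4 windows matches of the first overlapped each other, and windows of 1 gene can share bases. A match describes the letters only.

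The following 80-base stretches, all upstream of an annotated start and written 5′ to 3′ on the gene's strand, show the letters searched (capitals) in 4 members with large changes, in ISG15, whose change was close to the members' median, and in 3 with small changes, picked with their values in view. In ISG15 and BST2 the matches share a GAAA, so that the element reads as 3 repeats in a row.
BST2, chr19:17405710-17405789, minus strand: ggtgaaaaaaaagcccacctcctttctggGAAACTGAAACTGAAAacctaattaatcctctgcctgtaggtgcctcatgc
IFI27, chr14:94110606-94110685, plus strand: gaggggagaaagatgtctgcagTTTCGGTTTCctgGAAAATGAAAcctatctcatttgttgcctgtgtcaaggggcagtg
EPSTI1, chr13:42992247-42992326, minus strand: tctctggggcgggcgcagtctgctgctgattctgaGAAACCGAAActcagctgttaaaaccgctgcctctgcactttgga
RTP4, chr3:187368305-187368384, plus strand: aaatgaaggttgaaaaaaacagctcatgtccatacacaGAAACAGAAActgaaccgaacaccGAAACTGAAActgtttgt
ISG15, chr1:1013355-1013434, plus strand: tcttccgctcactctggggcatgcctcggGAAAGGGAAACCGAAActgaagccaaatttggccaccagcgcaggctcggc
LGALS3BP, chr17:78979937-78980016, minus strand: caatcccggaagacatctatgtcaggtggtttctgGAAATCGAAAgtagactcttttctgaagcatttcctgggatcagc
TRIM14, chr9:98119223-98119302, minus strand: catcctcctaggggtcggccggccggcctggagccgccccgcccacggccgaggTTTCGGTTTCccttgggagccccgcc
PARP12, chr7:140062952-140063031, minus strand: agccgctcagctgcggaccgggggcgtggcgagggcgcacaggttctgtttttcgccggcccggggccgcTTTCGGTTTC
The 28 members with a match had a median log2 difference of 1.01 (0.21 to 2.66) and the 13 without one a median of 1.13 (0.01 to 1.77), a description with no test.

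Values are the authors' normalized log2 signals, on a scale from 6.51 to 13.76, where about 6.97 was the limit above which a probe was counted as above background. Over all probes, r was 0.9965 to 0.9970 within a group and 0.978 to 0.980 across groups; probes are not independent replicates. The epithelial markers KRT5, KRT14, SFN, EPCAM and CDH1, the 5 of 8 analysed here, were above background on every array. All 5 were lower in resistant cells (differences -1.11 to -0.48). Their summed linear signal was 23329 to 25341 on parental and 14786 to 15737 on resistant arrays. Of 10 leukocyte markers, the pan-leukocyte gene PTPRC and CD3E, ITGAM and CLEC4C were at background on all 6 arrays, 5 were tested, and 2, CD68 and NCAM1, rose while CSF1R fell; the summed signal was 2564 to 2718 and 4186 to 4493. CD68, a lysosomal protein abundant in macrophages, rose by 1.38 (SE 0.0728, limma adjusted p = 3.84e-09), from a mean of 10.07 to 11.45. It was the brightest of the 10 in both groups, so the summed signal mostly follows this gene. Each sum also includes the signal of probes at background. Of 8 fibroblast markers 4 were tested (summed signal 991 to 1010 and 1915 to 1933). COL1A1 rose by 0.55, and the other 3 (COL1A2, DCN, LUM) were bright enough to be tested only on the resistant arrays, so a count of rises says nothing here. DCN, the matrix proteoglycan decorin, was at background in parental cells and at 9.44 in resistant cells, at least 5.55-fold higher, and LUM reached 8.22 from background, while THY1 and PDGFRB were at background throughout. Of 7 endothelial markers 6 were at background, and PECAM1 was above it on the resistant arrays alone, at 7.26 (summed signal 777 to 782 and 821 to 827). The part of these markers in the results that follow was not tested. In bulk RNA a change in every cell and a change in the share of cells that express a gene cannot be told apart.

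In the parental line nearly all of the effector genes already had signal above background. On all 3 parental arrays 49 of the 50 were above background, compared with 51.8% of the 20046 named genes by their brightest probes. Among the tested genes alone, to which all 50 belong, the share was 90.9%. Only TRIM14 was at background on all 3 parental arrays. The parental means ran from 6.94 for TRIM14 to 13.07 for MX1, and 5 members, MX1, IFI6, IFITM3, ISG15 and IFITM2, had parental means over 12 on a scale that ends at 13.76. Another 7, IFIT5, BST2, CMPK2, TRIM21, TRIM14, SP100 and APOL6, had parental means under 8. Signals of different probes depend on their sequences, so these levels describe each probe and are not an order of transcript amounts.

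In the resistant line 48 of the 50 rose and 0 fell (limma, Benjamini-Hochberg adjusted p under 0.05 over all 11421 genes), where 26.0% of all tested genes rose, 26.8% fell and 52.8% changed either way. No member had a lower mean in resistant cells, at any p. The resistant arrays all lay above the parental arrays for 46 members and all below for 0, shares that were 28.7% and 30.2% over all genes. At least 2-fold rises were seen for 31 members, against 1.99% of all genes. The median log2 difference of the 50 was 1.09, a 2.13-fold rise, and that of all tested genes was -0.01. Array by array, the median level of the 50 was 9.77, 9.77 and 9.78 on the parental arrays and 10.98, 11.10 and 10.89 on the resistant arrays, while the median over all tested genes was 8.18 to 8.20 on all 6. The SD within a group had a median of 0.0845 for parental and 0.0800 for resistant arrays over the members, so most changes were many times the spread. The 2 members that did not pass were ADAR and DTX3L. Of the 48 that rose, TRIM14 was bright enough to be tested only on the resistant arrays.

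**Figure D1:**
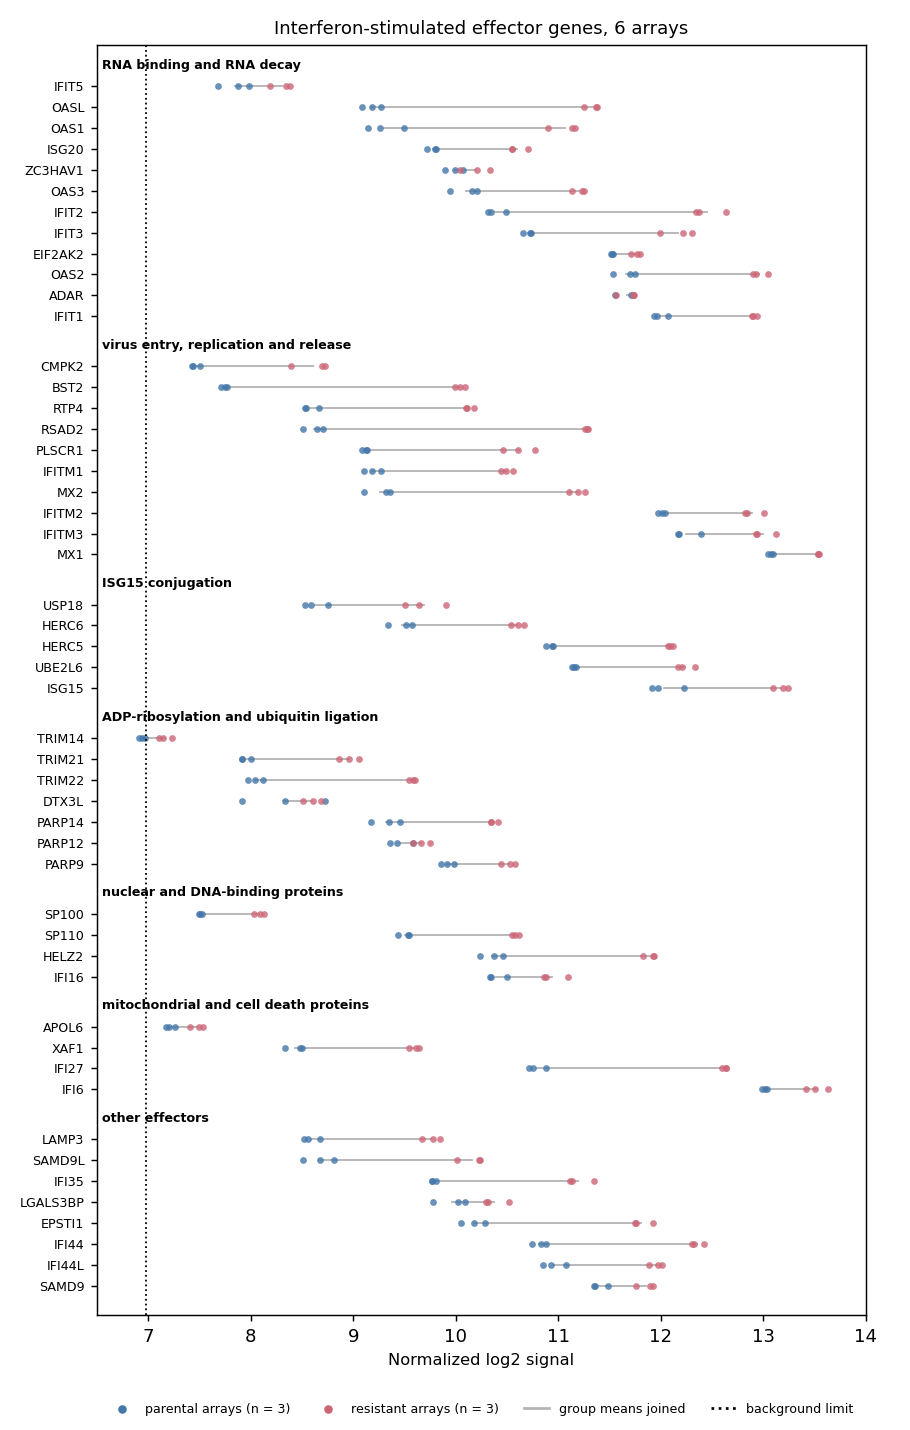
Normalized log2 signal (horizontal axis) of the 50 members, grouped by role, with 1 point for each of the 3 parental and 3 resistant arrays, a grey line between the group means and a dotted line at the background limit. The resistant points lie to the right of all parental points for 46 members and overlap them for ADAR, ZC3HAV1, PARP12 and DTX3L.

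Among the 12 genes for RNA binding and RNA decay 11 rose and 1 did not pass, with a median log2 difference of 1.01. The IFIT proteins are a family that binds viral RNA and blocks its translation. IFIT2 was measured at 10.35, 10.49 and 10.31 on the parental arrays and at 12.34, 12.37 and 12.64 on the resistant arrays. It rose 4.19-fold, a log2 difference of 2.07 (SE 0.0797, limma adjusted p = 2.01e-10), and the groups were far apart. IFIT3, which binds and stabilises IFIT1, was at 10.73, 10.66 and 10.72 and then at 12.22, 12.31 and 11.99. Its rise was 1.47 (SE 0.0747, limma adjusted p = 2.90e-09). IFIT1 itself was bright in parental cells, at 11.93, 11.97 and 12.07, and reached 12.89, 12.93 and 12.89, a smaller rise of 0.92 (SE 0.0576, limma adjusted p = 2.32e-08). A dimmer IFIT1 probe went from a mean of 7.81 to 9.08, a difference of 1.26. IFIT5 rose least of the 4 IFIT genes, by 0.46 (SE 0.0795, limma adjusted p = 2.80e-04) from a parental mean of 7.85.

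The OAS enzymes sense double-stranded RNA and make the second messenger that activates the nuclease RNase L; OASL is a relative that lacks this activity and enhances RNA sensing. OASL was at 9.08, 9.18 and 9.27 in the parental and 11.38, 11.25 and 11.37 in the resistant line. It rose 4.46-fold, by 2.16 (SE 0.0643, limma adjusted p = 1.63e-11), with no overlap. OAS1 was at 9.26, 9.14 and 9.50 and 11.13, 11.16 and 10.90, a rise of 1.77 (SE 0.0906, limma adjusted p = 3.07e-09). Another OAS1 probe, slightly brighter in parental cells with a mean of 9.33 against 9.30, was higher by 1.43. OAS2 rose by 1.29, from 11.66 ± 0.112 to 12.95 ± 0.0793 (SD, n = 3 each), and OAS3 by 1.10, from 10.10 ± 0.137 to 11.20 ± 0.0619 (SD, n = 3 each). The exonuclease gene ISG20, which degrades single-stranded RNA, rose by 0.83 (SE 0.0608, limma adjusted p = 1.04e-07) from a parental mean of 9.77.

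The remaining RNA-binding members had the smallest differences of the group. EIF2AK2, the kinase PKR that halts translation on double-stranded RNA, rose by 0.23 (SE 0.0542, limma adjusted p = 0.00263) from a bright parental mean of 11.53. ZC3HAV1, the zinc finger antiviral protein that targets CpG-rich RNA, differed by 0.21 (SE 0.0757, limma adjusted p = 0.0342) from a parental mean of 9.99, and its groups overlapped. It no longer passed when parental replicate 2 (adjusted p = 0.135), parental replicate 3 (0.0612), resistant replicate 2 (0.0837) or resistant replicate 3 (0.160) was dropped, and its adjusted p ran from 0.00610 to 0.160 across the alternatives. ADAR, the enzyme that edits adenosine to inosine in double-stranded RNA, was at 11.56, 11.73 and 11.71 on the parental and 11.73, 11.57 and 11.73 on the resistant arrays. Both groups covered the same range, and its difference of 0.01 (SE 0.0677, limma adjusted p = 0.913) had a 95% interval of -0.14 to 0.16. A second ADAR probe had means of 9.79 and 9.99, and the third was at background on all arrays.

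All 10 genes acting on virus entry, replication and release rose, with a median log2 difference of 1.40, the highest of the 7 role groups. RSAD2, the radical-SAM enzyme viperin, which makes a chain-terminating nucleotide, was at 8.51, 8.65 and 8.71 in parental cells and at 11.29, 11.28 and 11.26 in resistant cells. Its 6.30-fold rise, 2.66 (SE 0.0615, limma adjusted p = 1.79e-12), was the largest of the 50 on the authors' scale, and the resistant arrays lay within a narrow band. CMPK2, the mitochondrial nucleotide kinase gene next to RSAD2 on the chromosome, rose by 1.15 (SE 0.0789, limma adjusted p = 5.49e-08) from a parental mean of 7.45. BST2, the membrane protein tetherin that holds budding virions to the cell, was at 7.74, 7.71 and 7.77 and rose to 9.99, 10.09 and 10.04. Its log2 difference was 2.30 (SE 0.0552, limma adjusted p = 2.36e-12), a 4.92-fold rise. With the background mode subtracted, which widens the differences of dim probes, the folds became 8.02 for BST2 and 3.63 for CMPK2 (from 2.22), the 2 members whose fold moved most; RSAD2 then had 7.98-fold, just under BST2.

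MX1 and MX2 encode dynamin-like GTPases that trap viral capsids and nucleoproteins. MX1 was near the top of the scale, at 13.10, 13.04 and 13.08 in parental cells, and reached 13.54, 13.53 and 13.54. It rose by 0.46 (SE 0.0526, limma adjusted p = 6.82e-06). MX2 was at 9.10, 9.32 and 9.36 and reached 11.26, 11.10 and 11.20, a rise of 1.92 (SE 0.0735, limma adjusted p = 1.86e-10). Resistant arrays were above parental arrays for both genes. The IFITM proteins stop virus fusion with the cell's membranes: IFITM1 rose by 1.31 (SE 0.0610, limma adjusted p = 1.13e-09), IFITM2 by 0.88 and IFITM3 by 0.75, from parental means of 9.18, 12.01 and 12.24. These 3 genes are close copies of each other, so their probes may share signal. PLSCR1, a phospholipid scramblase with antiviral activity, rose by 1.50 (9.12 ± 0.0243 to 10.61 ± 0.158, SD, n = 3 each). RTP4, a chaperone of receptor proteins that also binds viral RNA, rose by 1.55 (8.58 ± 0.0761 to 10.13 ± 0.0445, SD, n = 3 each).

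The 5 genes of ISG15 conjugation all rose, with log2 differences between 1.06 and 1.17, the narrowest range of the role groups. ISG15, the ubiquitin-like modifier, was bright in the parental line at 11.91, 11.97 and 12.23 and reached 13.24, 13.19 and 13.09. Its rise was 1.14 (SE 0.0785, limma adjusted p = 5.65e-08), 2.20-fold. UBE2L6, the conjugating enzyme that carries ISG15, was at 11.13, 11.15 and 11.18 and then at 12.21, 12.16 and 12.34, a rise of 1.08 (SE 0.0598, limma adjusted p = 6.14e-09). HERC5, the main human ligase of ISG15, was at 10.95, 10.88 and 10.94 and 12.07, 12.09 and 12.12, a rise of 1.17 (SE 0.0542, limma adjusted p = 1.09e-09). All 3 genes had resistant arrays well above every parental array. HERC6, a relative of HERC5, was at 9.33, 9.51 and 9.57 and 10.66, 10.60 and 10.54 and rose by 1.13 (SE 0.0686, limma adjusted p = 1.64e-08). USP18, the protease that removes ISG15 and also dampens signalling at the type I interferon receptor, rose by 1.06 (SE 0.0920, limma adjusted p = 5.20e-07) from a parental mean of 8.62.

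Of the 7 genes for ADP-ribosylation and ubiquitin ligation 6 rose and 1 did not pass, with a median log2 difference of 0.60, the lowest of the role groups. TRIM22, a ubiquitin ligase that restricts several viruses, was at 8.04, 7.97 and 8.12 in parental cells and 9.59, 9.60 and 9.55 in resistant cells. It rose 2.90-fold, by 1.53 (SE 0.0578, limma adjusted p = 1.67e-10). PARP14, an ADP-ribosyltransferase, was at 9.45, 9.17 and 9.35 and 10.35, 10.35 and 10.41, a rise of 1.05 (SE 0.0704, limma adjusted p = 4.56e-08). TRIM21, the cytosolic antibody receptor and ligase, was at 7.918, 7.912 and 7.998 and 8.86, 9.06 and 8.96, a rise of 1.02 (SE 0.0624, limma adjusted p = 1.79e-08). For these 3 genes the groups did not overlap. TRIM14, a mitochondrial adaptor of antiviral signalling, went from background to 7.16, at least 1.14-fold, a fitted difference of 0.22 (SE 0.0565, limma adjusted p = 0.00446); it passed the filter on dim probes only through the resistant arrays.

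PARP9 and DTX3L encode partners of 1 complex that modifies histones and viral proteins, and their genes are neighbours. PARP9 rose by 0.60 (SE 0.0600, limma adjusted p = 2.16e-06) from a parental mean of 9.92. DTX3L was at 8.33, 7.92 and 8.73 on the parental arrays, a wide spread that held all 3 resistant values, 8.60, 8.69 and 8.51. Its difference of 0.28 (SE 0.142, limma adjusted p = 0.122) did not pass, with a 95% interval of -0.03 to 0.58. Without parental replicate 3 the difference was 0.48 and passed (adjusted p = 0.00159), and without parental replicate 2 it was 0.07; adjusted p ran from 0.00159 to 0.597 over the alternatives. PARP12, which ADP-ribosylates viral and stress-granule proteins, differed by 0.21 (SE 0.0696, limma adjusted p = 0.0230) from a parental mean of 9.45 with overlapping groups. It no longer passed when parental replicate 1 (adjusted p = 0.0642), parental replicate 3 (0.0969) or resistant replicate 2 (0.102) was dropped, with a span of 0.00650 to 0.102 across the alternatives.

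All 4 nuclear and DNA-binding members rose. HELZ2, a nuclear helicase and coactivator, was at 10.37, 10.24 and 10.46 and then at 11.93, 11.92 and 11.83, a rise of 1.54 (SE 0.0654, limma adjusted p = 4.75e-10). SP110, a nuclear body protein, was at 9.54, 9.44 and 9.54 and 10.62, 10.55 and 10.58 and rose by 1.08 (SE 0.0565, limma adjusted p = 3.83e-09), and the means of its 4 probes were higher by 0.78 to 1.08. SP100, a core protein of the same bodies, was dimmer, at 7.50, 7.53 and 7.50 and 8.03, 8.13 and 8.09, and rose by 0.57 (SE 0.0547, limma adjusted p = 1.29e-06). The means of its other probes were higher by only 0.27 and 0.28, so the size of the SP100 rise depended on the probe. The probe with 0.28 was brighter in parental cells, at 7.65 against 7.51. The choice by the mean over the 6 arrays thus fell on the probe with the larger rise. IFI16, a sensor of nuclear viral DNA, rose by 0.55 (SE 0.0727, limma adjusted p = 2.71e-05) from a parental mean of 10.39. The groups were separate for each of the 4.

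The 4 mitochondrial and cell death proteins rose by very different amounts. IFI27, a small mitochondrial protein, was at 10.72, 10.88 and 10.75 in parental cells and at 12.63, 12.64 and 12.59 in resistant cells. It rose 3.58-fold, by 1.84 (SE 0.0594, limma adjusted p = 3.99e-11). IFI6, of the same family, was at 12.99, 13.02 and 13.03 and 13.50, 13.63 and 13.42, near the top of the scale, a rise of 0.50 (SE 0.0632, limma adjusted p = 1.77e-05). A second IFI6 probe, less bright in parental cells at 12.25, went to 13.22, a difference of 0.97. XAF1, an antagonist of the apoptosis inhibitor XIAP, was at 8.48, 8.34 and 8.50 and 9.64, 9.61 and 9.54 and rose by 1.16 (SE 0.0612, limma adjusted p = 3.89e-09). A dimmer XAF1 probe, with a parental mean of 7.19, was higher by 0.57. APOL6, an apolipoprotein L that can promote cell death, rose by 0.27 (SE 0.0576, limma adjusted p = 0.00139) from 7.21, close above background.

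The 8 other effectors all rose, with a median log2 difference of 1.30. EPSTI1, a protein named for its induction in breast epithelium by stroma, was at 10.18, 10.05 and 10.29 and reached 11.76, 11.74 and 11.93, a rise of 1.64 (SE 0.0722, limma adjusted p = 6.82e-10). IFI44, a cytoplasmic antiviral protein, was at 10.83, 10.74 and 10.88 and 12.42, 12.31 and 12.32, a rise of 1.54 (SE 0.0601, limma adjusted p = 2.34e-10), and its neighbour IFI44L rose by 1.01 from a mean of 10.95. IFI35, a partner of the NMI protein, was at 9.76, 9.81 and 9.77 and 11.11, 11.13 and 11.35, a rise of 1.42 (SE 0.0679, limma adjusted p = 1.56e-09). In each of these the resistant arrays stood clear of the parental arrays. SAMD9L rose by 1.49 and its neighbour SAMD9, which like it restricts growth and poxviruses, by 0.46, from parental means of 8.67 and 11.40. LAMP3, a lysosomal membrane protein also known as a marker of mature dendritic cells, rose by 1.18 from a parental mean of 8.58, with both of its probes higher, by 0.68 and 1.18. LGALS3BP, a secreted glycoprotein that binds galectin-3, rose by 0.41 (SE 0.0844, limma adjusted p = 0.00105) from a parental mean of 9.96.

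**Figure D2:**
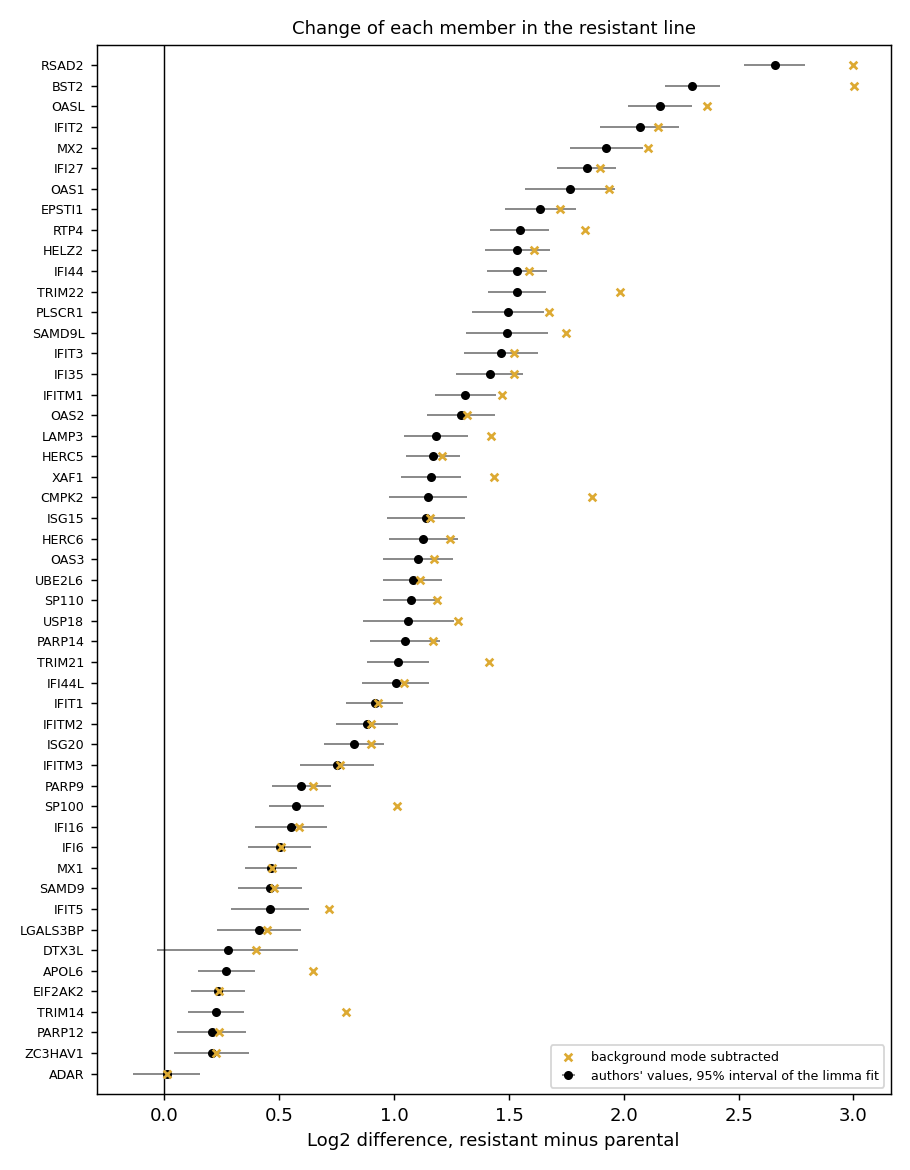
Log2 difference, resistant minus parental (horizontal axis), of each of the 50 members in order of size, with black points for the authors' values, grey bars for the 95% interval of the limma fit and crosses for the values after subtraction of the background mode. RSAD2 stands highest at 2.66 and ADAR lowest at 0.01, and the intervals of ADAR and DTX3L include 0.

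**Figure D3:**
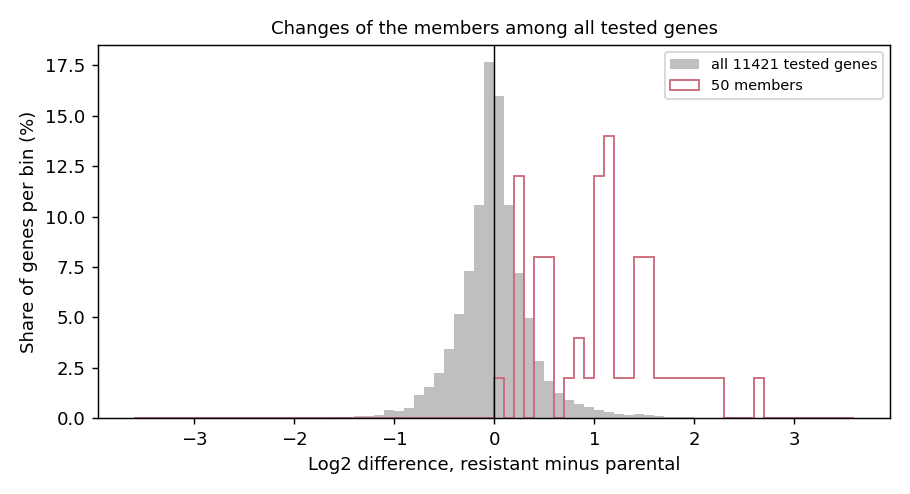
Share of genes in each bin (vertical axis, %) by log2 difference, resistant minus parental (horizontal axis), for all 11421 tested genes in grey and the 50 members as a line. The tested genes centre on -0.01 and the members on 1.09, with none of the members below 0.

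By probe, the 50 members had 77 probes, of which 75 were above background on at least 3 arrays, and 74 of these 75 had a higher mean in resistant cells. Of the 16 members with several probes, only IFIT3 had a tested probe with a lower mean there, from 9.11 to 9.06, while its other 2 probes were each higher by 1.47. Many members lie side by side in the genome: 23 of the 50 fall in 9 groups of neighbours, counting protein-coding genes at most 2 places apart in RefSeq order. The log2 differences varied within most of these groups. On chromosome 10 the 4 IFIT genes spanned 0.46 to 2.07, on chromosome 21 the MX genes 0.46 and 1.92, on chromosome 2 CMPK2 and RSAD2 1.15 and 2.66, and on chromosome 7 the SAMD9 genes 0.46 and 1.49. The OAS genes of chromosome 12 spanned 1.10 to 1.77, and the HERC genes of chromosome 4 were close together at 1.13 and 1.17.

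Upstream of the effectors, 31 of 33 listed ligands, receptors, kinases, regulators and sensors were analysed here. Of these 26 were tested, and 20 rose and 1 fell, where 26.0% of all tested genes rose and 26.8% fell. The median log2 difference was 0.34 over the tested upstream genes and 0.28 over the 31. Among the interferon genes, IFNB1 (interferon beta) was at 6.87, 6.81 and 6.77 in parental cells, below the background limit, and at 7.35, 7.30 and 7.38 in resistant cells. It was at least 1.29-fold higher there. The lambda interferons IFNL1 and IFNL2, the second a close copy of IFNL3, also went from background to 7.18 and 7.05, at least 1.15-fold and 1.05-fold. These 3 genes passed the filter on dim probes only through the resistant arrays, where they lay close above background, and are among the 20 counted. JAK2, also among the 20, was above background on only 1 parental array but on all resistant arrays. IFNE, interferon epsilon of mucosal epithelium, was the 1 gene that fell, by 0.33, and IFNA1, IFNA2, IFNK, IFNG and IFNL3 were at background on all 6 arrays.

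Among receptor chains and kinases, IFNAR1, of the type I receptor, rose by 0.29 (SE 0.0647, limma adjusted p = 0.00213), JAK1 by 0.35 and TYK2 by 0.39, while IFNGR1, of the interferon gamma receptor, rose by 1.04 (SE 0.0752, limma adjusted p = 8.63e-08). IRF9, the DNA-binding partner in the complex at the response element, was at 11.32, 11.42 and 11.35 and 11.75, 11.72 and 11.68, a rise of 0.35 (SE 0.0557, limma adjusted p = 1.30e-04). IRF7, the factor that amplifies interferon gene transcription, rose more, from 9.02, 8.99 and 8.88 to 10.10, 10.06 and 10.09, by 1.12 (SE 0.0573, limma adjusted p = 3.03e-09). The RNA sensors IFIH1 (MDA5), DHX58 (LGP2) and RIGI (RIG-I), which are themselves interferon-stimulated, rose by 1.65, 1.20 and 1.02. SOCS1, a feedback inhibitor of JAK kinases, differed by -0.12 (SE 0.0594, limma adjusted p = 0.112).

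Of 16 listed genes known as targets of interferon gamma, though not of it alone, 13 were tested and 12 rose, where 26.0% of all tested genes rose. Which interferon, if any, lay behind these rises was not tested. Their median log2 difference was 0.88 over the tested genes and 0.58 over all 16. Among the 12, CXCL9 and HLA-DMA were above background on only 1 and 2 parental arrays but on all resistant arrays. The 3 not tested, CIITA, HLA-DRB1 and CD74, of antigen presentation by class II molecules, differed by 0.06, 0.02 and 0.17 at or near background. HLA-DRA, of the same class II presentation, rose by 0.52 (SE 0.0655, limma adjusted p = 1.92e-05) from a parental mean of 7.97. HLA-DMA rose by 0.19 (SE 0.0577, limma adjusted p = 0.0128) and no longer passed when parental replicate 2 was dropped. The tryptophan-degrading enzyme IDO1 was at background in parental cells and at 9.27 in resistant cells, at least 4.92-fold higher, and entered the test only through the resistant arrays. CXCL10, a T cell chemokine, rose by 2.35 (SE 0.0559, limma adjusted p = 2.20e-12), and the guanylate-binding protein gene GBP2, by 2.12 (SE 0.0608, limma adjusted p = 1.04e-11). PSMB9, an immunoproteasome subunit, differed by 0.12 (SE 0.0622, limma adjusted p = 0.128), and IFNG itself stayed at background in both lines.

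**Figure D4:**
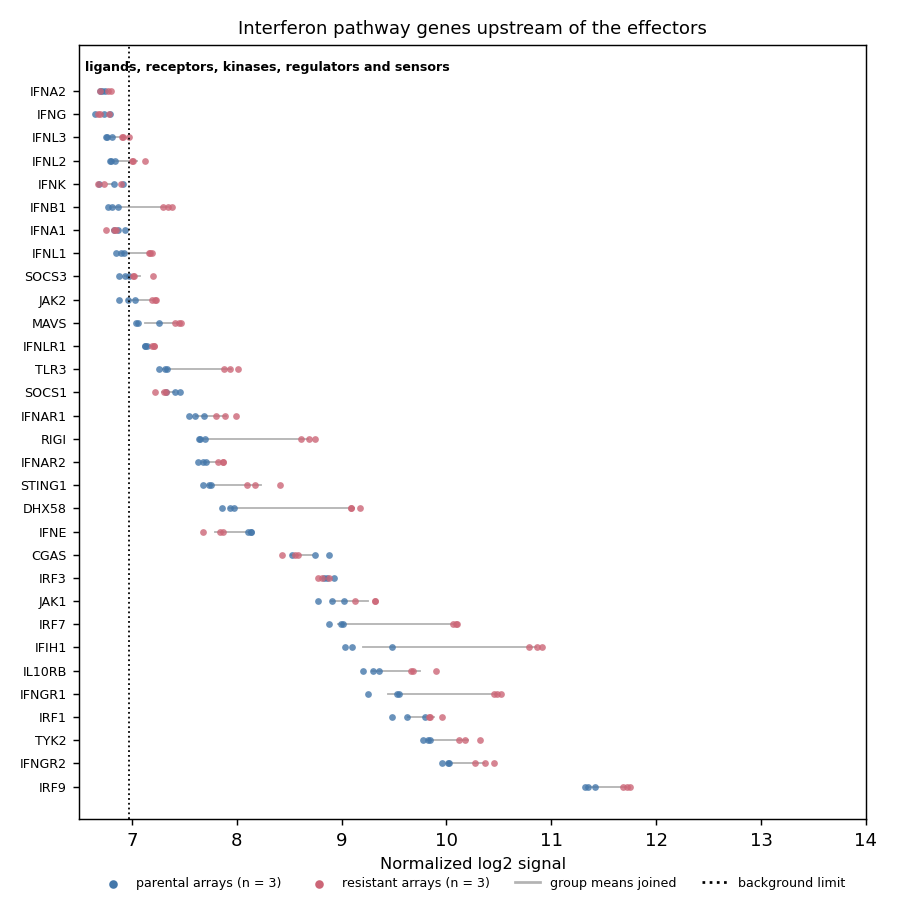
Normalized log2 signal (horizontal axis) of the 31 upstream interferon pathway genes analysed, with 1 point for each parental and resistant array, a grey line between group means and a dotted line at the background limit. IFNB1 crosses the limit in resistant cells, and the sensors IFIH1, DHX58 and RIGI show the widest shifts together with IRF7 and IFNGR1.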

How the data were processed

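Total RNA of 3 parental and 3 resistant HN5 samples was hybridised to Illumina expression arrays. The values are normalized log2 signals deposited by the authors for 47230 probes. How they were background-treated and normalized, and with which software, is not stated in the labels. Base 2 was read from the range of the values. The sorted values of the 6 arrays differ by at most 0.00434 at any rank, as after quantile normalization, so a change is measured against the remaining probes of an array. The table of non-normalized signals was left out: none of its 12 per-sample columns is named for a sample.

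Background was taken per array as the mode of the values plus 3 SD of the values below it (6.97 to 6.98). Probes above it on at least 3 arrays were kept. Of all probes, 30112 had 1 symbol in the platform's annotation, 8 had several and 17110 were unnamed here. Where a gene had several kept probes, the one with the highest mean stood for it. Where a group was at background on all arrays, a fold is given as "at least", from the brighter mean to the background limits.

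The group comparison used lmFit and eBayes of limma 3.58.1 under R 4.3.3 (no replicate block, 4 residual and 8.95 prior degrees of freedom), adjusted by Benjamini-Hochberg over 11421 genes with a threshold of 0.05. The fit was tested on simulated data with known changes. The number of arrays limits the precision. Same-numbered samples of the 2 groups correlated in their deviations at r = 0.15, -0.003 and 0.09, and the numbers were not taken as pairs. The members, their role groups, the other lists and the tests were chosen with earlier results of these data known. The naming rule gives array values for the 3 members of each role group with the smallest adjusted p, for members that did not pass, and for ISG15, MX1, BST2, RSAD2, IFI27, IFIT1 and OAS1; remaining members are named by mean and difference. Of the other lists it gives the 4 smallest adjusted p and IRF9, IRF7, IFNB1, IFNAR1 and CD68; other genes of those lists were chosen after their values were seen. Promoter matches were counted in RefSeq windows.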

Additional observations from a re-analysis of the deposited data

How the results depend on the processing

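Alternatives were no filter, a filter on all 6 arrays, the mean of a gene's probes, cyclic loess, subtraction of the background mode (offset 16), an intensity trend, array weights, a replicate block and leaving out each array. The number of effector genes that rose was 46 to 48 throughout, and 0 fell in each. With the filter on all 6 arrays 49 were tested and 47 rose. With the replicate block 48 rose, and the block changed the call of no member. Leaving out 1 array gave 46 to 48 rises, and the all-gene counts were 2642 to 2779 higher and 2746 to 2875 lower, against 2968 and 3063. Of 699 single-gene results of members under the alternatives, 11 lost a call (ZC3HAV1 and PARP12), 1 gained one (DTX3L) and 0 reversed. Without the filter ZC3HAV1 had an adjusted p of 0.0507, with the mean of probes 0.0531, and with the background mode subtracted 0.103, where PARP12 had 0.0748. The median log2 difference of the members, tested or all 50, was 0.99 with the mean of probes and 1.20 with the background mode subtracted, against 1.09. Leaving out 1 array gave medians from 1.07 to 1.14. Upstream genes that rose numbered 16 of 21 tested with the filter on all 6 arrays, and 19 to 21 under the other alternatives. Upstream genes that fell numbered 2 with the replicate block, where CGAS passed as well, and 1 to 2 when 1 array was left out, 2 without parental replicate 3. The members above background on all parental arrays were 50 with a limit of 2 SD and 49 with 5 SD. Signal near background is compressed, which limits what can be said of TRIM14 and APOL6. Signal near the top of the scale may be compressed as well, which was not tested. This limits what can be said of bright members such as MX1, IFI6, ISG15, IFITM3, OAS2, IFIT1 and IFITM2.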

Other observations

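One probe of IFIT3 differed from the other 2 for the same gene. It was at 9.16, 9.04 and 9.13 on the parental arrays and at 8.98, 9.18 and 9.03 on the resistant arrays, above background on all 6, while the probe used for the gene went from 10.73, 10.66 and 10.72 to 12.22, 12.31 and 11.99 and the remaining probe from 10.39, 10.40 and 10.62 to 12.02, 11.88 and 11.91. The reason was not tested.

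The 4 OAS2 probes, annotated to 3 transcript accessions, were higher in resistant cells by 0.42, 0.85, 1.29 and 1.48, and those of OAS1 by 0.70, 1.43, 1.70 and 1.77, so the size of the change in these genes depended on the probe and its direction did not.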
